A study of Mus musculus with 30 samples.

Results

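The 41 genes described here are antiviral interferon-stimulated genes, the textbook transcriptional targets of type I interferon. They were chosen by gene name from that knowledge, with earlier results of these data known, and all 41 were found among the 49315 genes of the deposited table. Their RNA was measured by RNA sequencing in 30 libraries of sorted 4T1-tdTomato cells, with 5 libraries in each of 6 groups. 4T1 is a mammary tumour line derived from a BALB/c mouse, and here the cells carried the red fluorescent protein tdTomato, by which they were sorted (viable, CD45-negative, tdTomato-positive). The hosts were female BALB/c mice, which share the strain of the tumour line, or female NSG mice, which lack T, B and NK cells but keep macrophages and neutrophils. The BALB/c tumour group came from mammary fat pad tumours at day 21 or 22 after injection of 200000 cells, and the NSG tumour group from such tumours at day 10. The BALB/c and NSG DTC groups, an abbreviation that the labels do not spell out, came from lungs at day 7 after tail vein injection of 500000 cells. The BALB/c macro-met group came from lungs at day 21 or 23 after tail vein injection, and the NSG macro-met group from lungs at day 19 or 20. Organ, injection route and cell number change together between tumour and lung groups, and the day differs between hosts for tumours and macro-mets, so these cannot be told apart from stage and host. All groups share the same tumour line, and animal ages are not given in the sources used here.

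Cells detect viral or misplaced nucleic acid through sensors such as RIG-I (gene Ddx58) and MDA5 (Ifih1), and answer by secreting type I interferon. Interferon binds the receptor IFNAR1/IFNAR2, the kinases JAK1 and TYK2 are activated, and the complex ISGF3, which holds STAT2 and IRF9, is formed. ISGF3 binds the interferon-stimulated response element (ISRE) in the promoters of genes like the 41 described here, whose products degrade viral RNA, block translation, trap virions or tag proteins with ISG15. Interferon gamma, made mainly by T and NK cells, acts on a different element, GAS, and induces a part of the same genes. Several members are themselves sensors or transcription factors, so the pathway feeds back on itself, while the protease USP18 dampens it at the receptor. In the 4T1 model, tumour cells are known for lower expression of Irf7-dependent genes in bone metastases.

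Promoter sequences of members were read from RefSeq (GRCm38.p6) to show the element through which these genes are induced. The table held 31 of the 41 members. An ISRE, searched on both strands as GAAA, 2 bases of any kind and GAAA again, in the window from 250 bases before to 50 bases after the start, was present in 13 of 31 members (41.9%), against 1079 of 27025 genes (3.99%) with the same window. A GAS, searched as TTCNNNGAA (the same on either strand), was present in 6 of 31 members (19.4%) against 9.55% of genes, and 3 members held both motifs (9.68% against 0.614%). The 13 members with an ISRE were Isg15, Ifit1, Ifit3, Ifit3b, Oas1a, Oas1g, Oas3, Rsad2, Ddx58, Ifih1, Eif2ak2, Bst2 and Trim30a. They held 22 matches, of which 18 lay within 200 bases before the start, with a median position at base -73.5. Overlapping matches were counted separately, and 7 members held 2 or more in a single window. The table lists more than 1 window for 4 members, of which Trim30a held a match in each of 2. Isg15 held 3 overlapping matches that start at bases -78, -72 and -66, the most in a single window. The 250 bases before the start are printed for 3 members with an ISRE and for Irf7, which has no match to these letters in its window. Capitals mark ISRE matches and the sequences run 5′ to 3′ on the strand of the gene. The windows are chr4:156200819-156201068, minus strand for Isg15, chr19:34640639-34640888, plus strand for Ifit1, chr8:71537473-71537722, minus strand for Bst2 and chr7:141266425-141266674, minus strand for Irf7.
Isg15: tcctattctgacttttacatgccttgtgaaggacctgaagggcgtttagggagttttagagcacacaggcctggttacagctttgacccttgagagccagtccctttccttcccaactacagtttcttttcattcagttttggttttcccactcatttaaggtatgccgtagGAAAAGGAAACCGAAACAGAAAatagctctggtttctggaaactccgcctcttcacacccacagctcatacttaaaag
Ifit1: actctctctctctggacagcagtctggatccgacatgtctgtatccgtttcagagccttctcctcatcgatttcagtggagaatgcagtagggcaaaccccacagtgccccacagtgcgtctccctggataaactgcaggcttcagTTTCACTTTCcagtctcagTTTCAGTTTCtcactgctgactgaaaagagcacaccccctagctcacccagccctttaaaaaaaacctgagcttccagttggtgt
Bst2: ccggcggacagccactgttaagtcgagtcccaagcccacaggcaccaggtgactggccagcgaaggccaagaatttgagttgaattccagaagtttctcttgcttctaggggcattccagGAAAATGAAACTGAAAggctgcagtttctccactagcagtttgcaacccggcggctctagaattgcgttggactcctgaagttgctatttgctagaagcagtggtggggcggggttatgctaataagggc
Irf7: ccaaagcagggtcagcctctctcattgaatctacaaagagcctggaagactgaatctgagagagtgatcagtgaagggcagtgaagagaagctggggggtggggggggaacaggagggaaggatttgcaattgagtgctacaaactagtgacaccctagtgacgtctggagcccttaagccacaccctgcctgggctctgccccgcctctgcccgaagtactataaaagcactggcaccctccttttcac

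In Ifit1, which encodes a protein that binds viral RNA lacking host cap marks, the matches start at bases -104 and -85 and are read on the opposite strand. In Bst2, which encodes the virion-trapping membrane protein tetherin, a pair of overlapping matches starts at bases -130 and -124, and the window also holds a GAS. In these data, the median log2 change from NSG tumour to DTC was 1.11 over the 13 members with an ISRE and 0.22 over the 18 members without a match. From NSG DTC to macro-met the medians were -1.63 and -0.77, and between hosts in macro-mets 1.53 and 0.94. These medians describe the members and were not tested. A split of the 41 members by GC content of their transcripts gave similar differences. From NSG tumour to DTC the 20 members of lower GC content had a median of 1.12 and the 21 others 0.2. These medians were -2.17 and -0.95 from NSG DTC to macro-met, and 1.59 and 1.04 between hosts in macro-mets. The part of GC content in the ISRE medians was not tested.

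Libraries held 29832098 to 65621525 gene counts. The members' levels are given as CPM (counts relative to a common library total), scaled by the trimmed mean of M values, and each difference as a log2 fold change from edgeR's quasi-likelihood test with the Benjamini-Hochberg adjusted p over 17774 genes. A gene is called at an adjusted p under 0.05. The labels do not say whether libraries of a group came from separate animals. Titles within a group share leading numbers whose meaning is not given, and each such number holds libraries of a single group, so no value within it could compare groups. The p-values therefore measure the spread between these libraries. All 41 members passed the filter on low counts and none was at 0 in any library, although Rsad2 was down to 2 counts and Mx1 to 7. The 5 genes fixed as markers of 4T1 cells (Epcam, Krt8, Krt18, Krt14 and Cdh1) were detected in every library, with a summed level of 3960 to 8630 CPM. They are genes of epithelial cells in general, and the part of host epithelium in this sum was not tested. Markers of other cells were present at lower levels. Lung epithelium markers (10 genes) summed to 72 to 3380 CPM in BALB/c DTC, led by replicate 1 (3380 CPM) and replicate 2 (1460 CPM), against 25 to 61.1 CPM in NSG DTC, 1.79 to 11.3 CPM in tumours and 13.1 to 71.7 CPM in macro-mets. Macrophage and monocyte markers (10 genes) summed to 27.6 to 670 CPM in BALB/c DTC and to 13.5 to 105 CPM in the other groups. Ptprc, the gene of the CD45 antigen used to remove leukocytes, was highest in BALB/c tumour replicate 4 (6.62 CPM), BALB/c DTC replicate 1 (3.9 CPM) and BALB/c tumour replicate 5 (2.61 CPM). Plasmacytoid dendritic cell markers (5 genes), T and NK markers (8 genes) and B cell markers (4 genes) each summed to at most 7.83, 2.98 and 1.93 CPM.

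Per transcript length, the most abundant members were Bst2, with a mean of 495 TPM (transcripts relative to length and to a common total) over the 6 groups, Ifi27 (417 TPM), a small mitochondrial protein, and Lgals3bp (248 TPM), a secreted galectin-binding glycoprotein. Ifi35 (96.9 TPM), Isg15 (81.8 TPM) and Oas1a (64.8 TPM) followed. The scarcest were Rsad2 (1.91 TPM) and Mx1 (1.32 TPM). The members thus range from well counted genes to genes with few counts in a library.

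The mean log2 CPM of the 41 members summarises each library. It was 5.03, 5.43, 4.75, 4.53 and 5.12 in BALB/c tumours, 5.45, 4.71, 4.35, 5.38 and 4.38 in BALB/c DTC, and 3.81, 3.97, 4.29, 4.46 and 4.29 in BALB/c macro-mets. In NSG hosts it was 3.79, 3.6, 3.43, 3.74 and 3.67 in tumours, 4.7, 4.44, 4.5, 4.35 and 4.11 in DTC, and 2.98, 3.06, 2.5, 2.94 and 3 in macro-mets. Every BALB/c tumour library lay above every NSG tumour library, every BALB/c macro-met library above every NSG macro-met library, and the hosts overlapped in DTC. NSG macro-met libraries were the lowest of all 30. The 2 BALB/c DTC libraries with the most lung epithelium RNA stood at 5.45 and 4.71. BALB/c DTC replicate 4, at 5.38, held lung epithelium markers at 195 CPM and macrophage and monocyte markers at 106 CPM. Replicates 3 and 5, at 4.35 and 4.38, held lung epithelium markers at 96 and 72 CPM. Their macrophage and monocyte markers stood at 27.6 and 31.3 CPM. The part of such cells in these means was not tested. BALB/c tumour replicate 4, with the most Ptprc, had the lowest mean of its group.

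**Figure D1:**
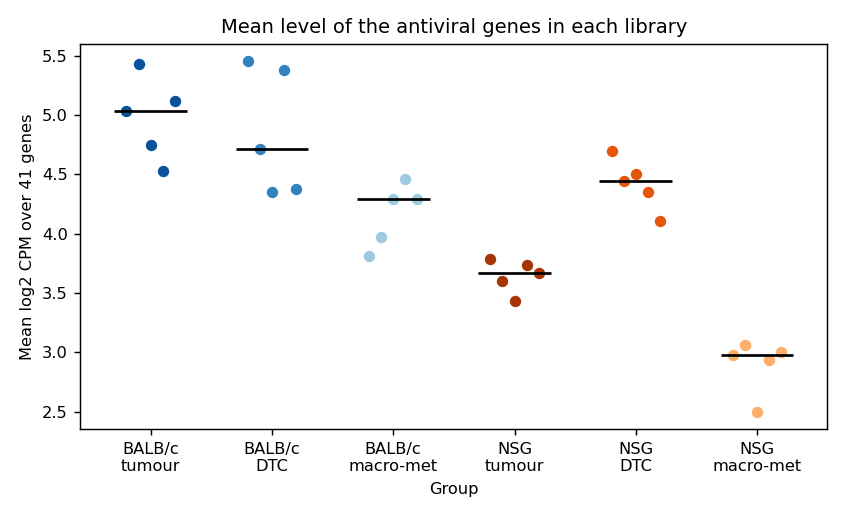
Mean log2 CPM of the 41 members (y axis) in each library, by group (x axis), with 1 point per library and a bar at the median of 5 libraries. BALB/c tumours range from 4.53 to 5.43 and NSG tumours from 3.43 to 3.79, and the NSG macro-mets, from 2.5 to 3.06, lie below all other libraries.

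The comparison of hosts asks how these genes differ when the same tumour line grows in BALB/c or NSG mice. The hosts differ in strain as well as in T, B and NK cells, and these cannot be told apart here. In tumours, 32 of the 41 members were higher in BALB/c than in NSG hosts and none was lower, where 23.6% of all genes tested were called in either direction and 11% as higher. The members' median log2 fold change was 1.32, against 0.08 over all genes. In 28 of 41 members the 5 BALB/c libraries all lay above the 5 NSG libraries, as they did for 6.79% of all genes. The members with the smallest adjusted p were Bst2 (1.74 ± 0.2 (SE), adjusted p = 1.28e-07), Ifit3, an antiviral RNA-binding cofactor (2.5 ± 0.29 (SE), adjusted p = 2.27e-07), and Rtp4, a receptor-transporting protein that binds viral RNA (1.85 ± 0.23 (SE), adjusted p = 5.84e-07). Mx1 had the highest log2 fold change of the members (3.48 ± 0.45), from 0.258 ± 0.0489 to 2.91 ± 1.67 CPM (mean ± SD, n = 5). The 9 members not called were Oasl1, Ddx58, Eif2ak2, Ifi27, Trim25, Adar, Rnf213, Epsti1 and Helz2. Leaving out each library in turn, 28 of the 32 calls held, and those of Ifit2, Oas2, Rsad2 and Samd9l did not. In bulk RNA, fewer cells that express a gene and less RNA per cell cannot be told apart. Macrophage and monocyte markers summed to 46.7 to 105 CPM in BALB/c and 13.5 to 29.4 CPM in NSG tumours. The 4T1 markers summed to 5300 to 6150 CPM in BALB/c and 7590 to 8050 CPM in NSG tumours, also without overlap. The part of these shifts in the difference was not tested. Without BALB/c tumour replicates 4 and 5, which held the most Ptprc of their group, 34 members were higher and none lower, a choice made after seeing the data.

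In macro-mets the result for the members was alike in size while far fewer genes were called in all. Of 41 members, 30 were higher in BALB/c and none was lower, where 2.64% of genes were called in either direction, 1.88% as higher and 0.76% as lower. The median log2 fold change was 1.26 against -0.01 over all genes, and all 41 values were above 0, from 0.2 to 3.41. In 29 members the BALB/c libraries all lay above the NSG libraries (3.09% of genes), and in none all below (3.88%). Bst2 (1.53 ± 0.2 (SE), adjusted p = 6.36e-06), Cmpk2, a mitochondrial nucleotide kinase (2.16 ± 0.29 (SE), adjusted p = 9.77e-06), and Ifit3 (2.16 ± 0.29 (SE), adjusted p = 1.23e-05) had the smallest adjusted p. With each library left out in turn, 24 of the 30 calls held, and those of Mx1, Mx2, Rsad2, Ddx58, Parp14 and Rnf213 did not. Here the markers of other cells overlapped between hosts: lung epithelium markers summed to 13.1 to 71.7 CPM in BALB/c and 19.7 to 43 CPM in NSG, and macrophage and monocyte markers to 25.1 to 82.4 and 41.8 to 73.2 CPM.

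In DTC more members were higher than lower in BALB/c. BALB/c DTC exceeded NSG DTC in 20 of 41 members, 3 were lower and 18 were not called, where 38.8% of genes were called in either direction, 17.1% as higher and 21.7% as lower. The median log2 fold change was 0.75, against -0.01 over all genes. The libraries did not overlap in 9 members that were above (12.3% of genes) and in the 3 that were below (19.3% of genes). Bst2 (2 ± 0.2 (SE), adjusted p = 1.77e-08), Ifi35, an interferon-induced leucine zipper protein (1.07 ± 0.13 (SE), adjusted p = 2.46e-07), and Zbp1, a sensor of Z-form nucleic acid (1.99 ± 0.26 (SE), adjusted p = 1.24e-06), led the increases. Lower in BALB/c were Samd9l, a translational repressor and antiviral restriction factor (-2.07 ± 0.47 (SE), adjusted p = 0.000714), Eif2ak2, the double-stranded RNA-dependent kinase PKR (-1.52 ± 0.35 (SE), adjusted p = 0.00082), and the sensor Ifih1 (-1.36 ± 0.4 (SE), adjusted p = 0.0072). With offsets for each library's dependence on GC content and length, Samd9l (-1.13) and Eif2ak2 (-1.02) were still called and Ifih1 was not (-0.63, adjusted p = 0.146), while 25 members were higher and 2 lower. On log2(TPM + 1) with limma the split was 14 higher and 5 lower. Leaving out each library in turn, 20 of the 23 calls held, and those of Oas2, Oasl2 and Ifi27 did not. Without BALB/c DTC replicates 1 and 2, which held the most lung epithelium RNA, 18 members were higher and 4 lower. Neutrophil markers (7 genes) also stood apart, at 9.59 to 62.1 CPM in BALB/c DTC and 1.19 to 3.03 CPM in NSG DTC, and their part was not tested.

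At all 3 stages, 17 members were called higher in BALB/c, as were 1.03% of all genes: Isg15, Ifit3, Oas1a, Oas1g, Oas2, Oas3, Oasl2, Usp18, Cmpk2, Dhx58, Bst2, Ifi35, Zbp1, Irf7, Irf9, Rtp4 and Xaf1. A further 10 were called higher in tumours and macro-mets and not called in DTC (0.315% of genes), namely Ifit1, Ifit3b, Mx1, Mx2, Rsad2, Ifi44, Parp9, Parp14, Dtx3l and Herc6. Trim25, the ubiquitin ligase that activates RIG-I, the RNA-editing enzyme Adar, Epsti1 and Helz2, an interferon-induced helicase, were called between hosts at no stage.

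**Figure D2:**
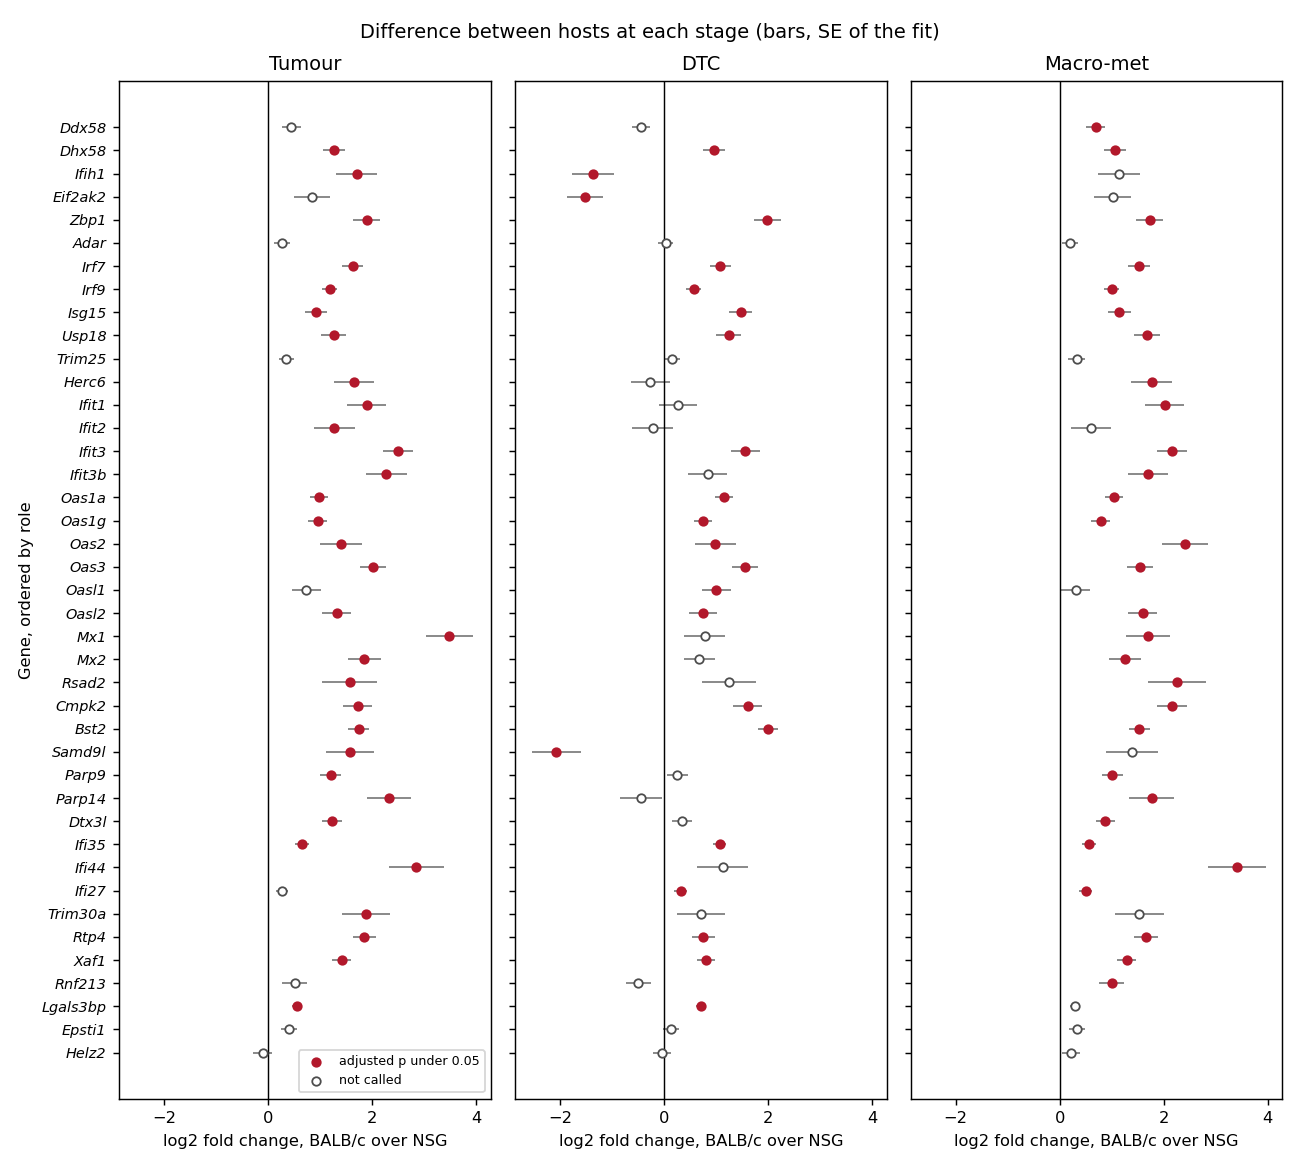
Log2 fold change of BALB/c over NSG (x axis, ± SE) for each of the 41 members (y axis) in tumours, DTC and macro-mets. The values run from -0.11 to 3.48 in tumours, from -2.07 to 2 in DTC and from 0.2 to 3.41 in macro-mets, and Samd9l, Eif2ak2 and Ifih1 lie to the left of 0 in DTC.

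The comparison of stages asks how the members differ between the mammary tumour, the lung at day 7 and later lung metastases within a host. In NSG mice, 19 members rose from tumour to DTC and none fell, where 25.5% of genes were called in either direction and 16% as higher. The members' median log2 change was 0.54 against 0.06 over all genes, and in 19 members the DTC libraries all lay above the tumour libraries (17% of genes) and in none all below (8.45%). Mx1 (3.02 ± 0.44 (SE), adjusted p = 1.19e-05), Ifit3 (1.86 ± 0.29 (SE), adjusted p = 2.75e-05) and Samd9l (3.18 ± 0.49 (SE), adjusted p = 3.24e-05) had the smallest adjusted p. Endothelial markers (7.16 to 18.8 against 46.6 to 70.6 CPM) and lung epithelium markers (5.47 to 11.3 against 25 to 61.1 CPM) also rose in sum from NSG tumour to DTC without overlap. So did macrophage and monocyte markers (13.5 to 29.4 against 30.3 to 81.9 CPM) and red cell markers (1.13 to 6.1 against 17.4 to 65.4 CPM). In the same step 4T1 markers (7590 to 8050 against 3960 to 6750 CPM) and fibroblast markers (241 to 323 against 135 to 184 CPM) fell. With endothelial, lung epithelium and macrophage markers as a covariate, 11 members were called in place of 19. From NSG DTC to macro-met, 32 members fell and 1 rose, where 43.7% of genes were called, 22.4% as lower. The median was -1.34 against 0.02, and 31 members had all macro-met libraries below all DTC libraries (20.3% of genes). Samd9l fell by 5.62 on the log2 scale, from 39.2 ± 7.12 to 0.798 ± 0.33 CPM (mean ± SD, n = 5, adjusted p = 8.49e-09), followed by Ddx58 (-1.63 ± 0.19 (SE), adjusted p = 4.32e-08) and Eif2ak2 (-3.26 ± 0.37 (SE), adjusted p = 6.08e-08). All 3 are of lower GC content. The 20 members of lower GC content had a median of -2.17 in this step and the 21 others -0.95. With offsets for GC content and length these medians were -1.52 and -1.02, and 33 members fell and 1 rose. Fibroblast markers summed to 135 to 184 CPM in NSG DTC and 395 to 501 CPM in NSG macro-mets, and their part was not tested. Against NSG tumours, where they summed to 241 to 323 CPM, 19 members were lower and 1 higher in macro-mets, where 30.5% of genes were called, 13.6% as lower. Their median was -0.62 against 0.02, and 20 members lay wholly below (10.7% of genes). Oas2 (-3.18 ± 0.45 (SE), adjusted p = 4.29e-06), Usp18 (-1.67 ± 0.25 (SE), adjusted p = 9.81e-06) and Oasl2 (-1.86 ± 0.28 (SE), adjusted p = 1.82e-05) had the smallest adjusted p. From NSG tumour to macro-met, 4T1 markers fell without overlap (7590 to 8050 against 4970 to 5710 CPM). Macrophage and monocyte (13.5 to 29.4 against 41.8 to 73.2 CPM) and endothelial markers (7.16 to 18.8 against 20.2 to 50.8 CPM) rose without overlap. Lung epithelium markers did too (5.47 to 11.3 against 19.7 to 43 CPM). The part of these shifts was not tested.

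From tumour to DTC in BALB/c mice the members were called about as often as all genes. Of the members 9 rose and 7 fell (39% called), where 41.4% of genes were called, 20.4% as higher and 21% as lower. The median was -0.03 against -0.09. Those that rose were led by Oasl1, an OAS-like protein without enzyme activity (1.12 ± 0.28 (SE), adjusted p = 0.00197), Helz2 (0.62 ± 0.18 (SE), adjusted p = 0.00561) and Isg15 (0.73 ± 0.21 (SE), adjusted p = 0.00639). The decreases were led by Irf9 (-0.61 ± 0.15 (SE), adjusted p = 0.00162), Trim30a, a tripartite motif protein (-1.73 ± 0.46 (SE), adjusted p = 0.00349), and Dtx3l, a ubiquitin ligase (-0.64 ± 0.19 (SE), adjusted p = 0.00846). Trim30a was the only member whose DTC libraries all lay below the tumour libraries (9.19% of genes). The split between increases and decreases moved with the setting: with the marker genes of other cells as a covariate it was 2 up and 11 down, on log2(TPM + 1) or without BALB/c DTC replicates 1 and 2 it was 7 and 11, and without BALB/c tumour replicates 4 and 5 it was 4 and 9. The Isg15 call was lost with the marker covariate (0.29, adjusted p = 0.437) and that of Helz2 without BALB/c DTC replicate 5 (0.38, adjusted p = 0.0756). Of the 16 calls, those of Oasl1, Ifi44, Irf9 and Trim30a held in every setting tried.

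From BALB/c DTC to macro-met, 21 members fell and 1 rose, where 30.8% of genes were called, 14.2% as lower. The median was -0.71 against -0.04, and 10 members lay wholly below (10.1% of genes). The oligoadenylate synthetases Oas1a (-1.46 ± 0.17 (SE), adjusted p = 1.23e-07) and Oas1g (-1.3 ± 0.18 (SE), adjusted p = 1.8e-06) and the ubiquitin-like modifier Isg15 (-1.28 ± 0.21 (SE), adjusted p = 2.98e-05) had the smallest adjusted p. Without BALB/c DTC replicates 1 and 2, 19 members were lower and 1 higher. Fibroblast markers summed to 80.1 to 157 CPM in BALB/c DTC and 308 to 496 CPM in macro-mets, and 4T1 markers to 6620 to 8630 and 4180 to 6340 CPM. Lung epithelium markers summed to 72 to 3380 CPM in BALB/c DTC and 13.1 to 71.7 CPM in macro-mets, a fall without overlap. The part of these shifts was not tested. Against BALB/c tumours, 26 members were lower in macro-mets and 1 was higher, where 37.8% of genes were called, 19.6% as higher and 18.2% as lower. That median was -0.64 against -0.03, and 14 members lay wholly below (9.66% of genes). Oas1a (-0.98 ± 0.17 (SE), adjusted p = 5.64e-05), Oasl2 (-1.57 ± 0.28 (SE), adjusted p = 8.49e-05) and Samd9l (-2.61 ± 0.48 (SE), adjusted p = 0.000145) led. In both hosts, 18 members were lower in macro-mets than in DTC, as were 5.32% of all genes. They include all 6 OAS members, Isg15, Usp18, Ifit1, Ifit3, Ifit3b, Mx1, Mx2 and Irf7.

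The member that rose against the others was Lgals3bp in each of these 4 comparisons with macro-mets. Libraries of BALB/c mice held Lgals3bp at 289, 327, 282, 239 and 261 CPM in tumours, at 274, 256, 230, 325 and 282 CPM in DTC and at 329, 384, 388, 308 and 373 CPM in macro-mets. In NSG mice the values were 188, 180, 184, 207 and 196 CPM in tumours, 194, 181, 152, 163 and 145 CPM in DTC and 292, 268, 277, 319 and 290 CPM in macro-mets. Macro-met libraries were the highest in NSG hosts without overlap, and in BALB/c hosts they overlapped those of both other stages. It rose by 0.38 ± 0.1 from BALB/c DTC, by 0.35 ± 0.1 from BALB/c tumour, by 0.79 ± 0.1 from NSG DTC and by 0.6 ± 0.1 from NSG tumour on the log2 scale (SE, adjusted p = 0.00345, 0.00621, 1.41e-07 and 3.63e-05). The rise of Lgals3bp from BALB/c tumour was not called with GC and length offsets (0.14, adjusted p = 0.27) or without BALB/c tumour replicates 4 and 5 (0.23, adjusted p = 0.127).

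**Figure D3:**
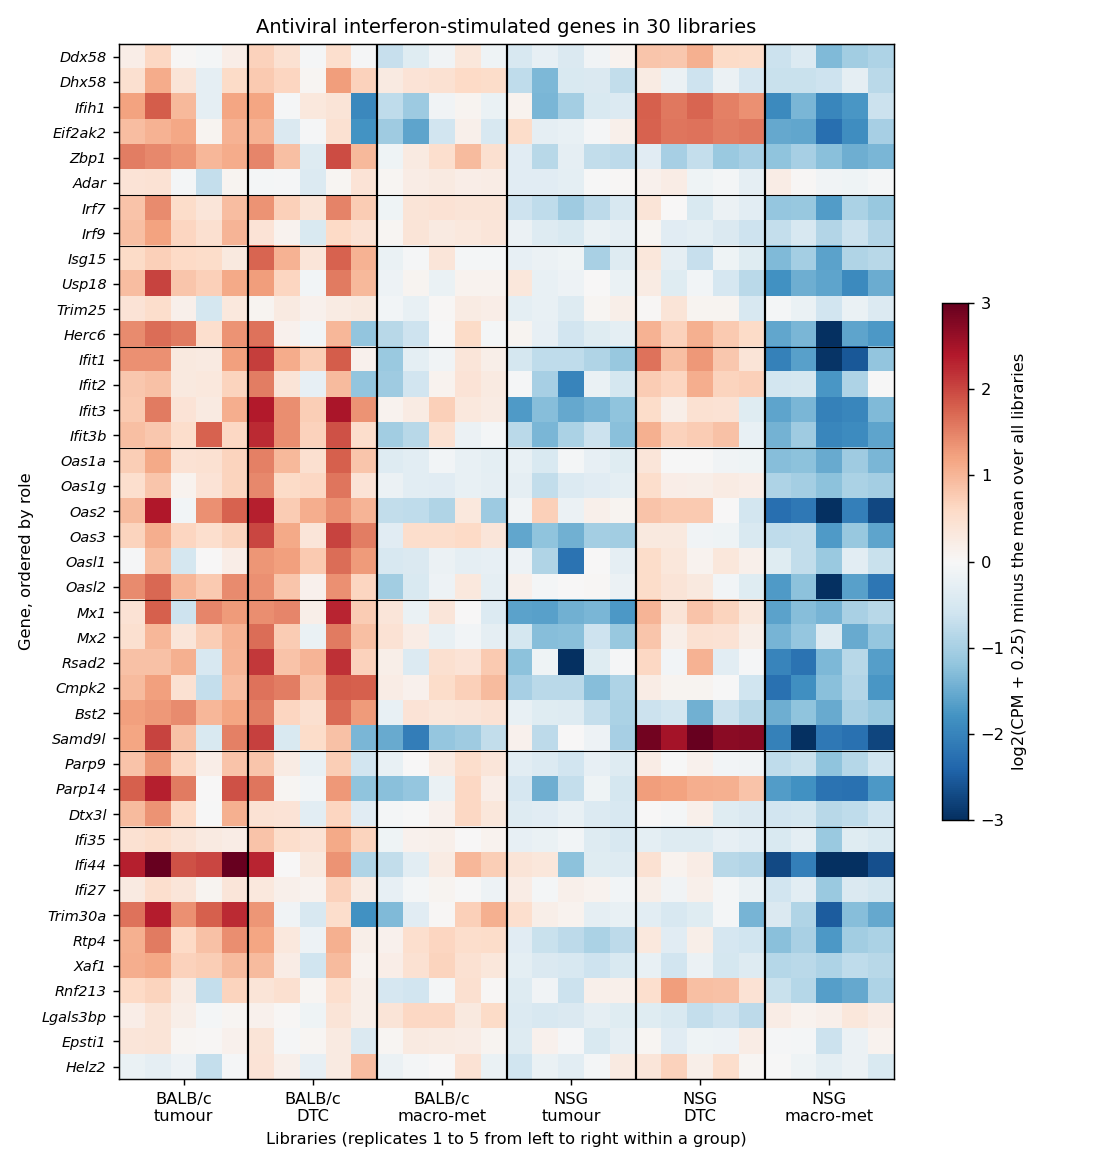
Levels of the 41 members in the 30 libraries, as log2 CPM relative to the mean of each gene (colour), with members in rows by role and libraries in columns by group. The mean level was lowest in NSG macro-mets for 34 members and highest in BALB/c tumours for 17, in BALB/c DTC for 15, in NSG DTC for 7 and in BALB/c macro-mets for 2.

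Nucleic acid sensors and RNA-binding enzymes (Ddx58, Dhx58, Ifih1, Zbp1, Eif2ak2 and Adar) did not move as a block: 3 of 6 were higher in BALB/c tumours, 3 of 6 in BALB/c macro-mets, and in DTC 2 were higher and 2 lower. Of all genes, 11% were called higher in BALB/c in tumours, 1.88% in macro-mets and 17.1% in DTC. Those called lower were 12.6%, 0.76% and 21.7%. The counts by role below stand against the same shares. Ddx58 (chr4:40203773-40239828, GRCm38) encodes RIG-I, which senses RNA ends with a triphosphate. The BALB/c levels of Ddx58 were 37.5, 50.3, 33.5, 31 and 37.3 CPM in tumours, 52.9, 44.5, 31.7, 46 and 31.7 CPM in DTC and 19.9, 25.3, 29.9, 41.3 and 29.7 CPM in macro-mets. The NSG libraries held Ddx58 at 23.2, 27.2, 24.1, 30.1 and 34.9 CPM in tumours, 57.5, 57.2, 68.7, 48.3 and 48 CPM in DTC and 20.7, 24.5, 12.8, 15.6 and 17 CPM in macro-mets. For Ddx58, the hosts overlapped in tumours, DTC and macro-mets. Ddx58 was called higher in BALB/c in macro-mets (0.69) on the log2 scale. By stage it rose from NSG tumour to DTC (1) and fell from BALB/c DTC to macro-met (-0.5), from NSG DTC to macro-met (-1.63) and from NSG tumour to macro-met (-0.62). The Ddx58 call between hosts in macro-mets was lost without BALB/c macro-met replicate 4 or 5 or without NSG macro-met replicate 3, 4 or 5 (adjusted p = 0.0591 to 0.146). Ddx58 was no longer called from BALB/c DTC to macro-met without BALB/c DTC replicate 1, 2 or 4 or without BALB/c macro-met replicate 1, 2, 3 or 5 (adjusted p = 0.0612 to 0.151), with the marker genes as a covariate (-0.23, adjusted p = 0.442) or without BALB/c DTC replicates 1 and 2 together (-0.32, adjusted p = 0.311). Ifih1 (chr2:62595798-62646255) encodes MDA5, the sensor of long double-stranded RNA. Ifih1 was measured at 22.9, 34.8, 19.2, 8 and 22.5 CPM in BALB/c tumours, at 22.4, 9.42, 12.1, 12.8 and 2.37 CPM in BALB/c DTC and at 5.63, 4.46, 8.98, 10.3 and 8.43 CPM in BALB/c macro-mets. NSG levels of Ifih1 were 10.5, 3.59, 4.68, 7.07 and 7.2 CPM in tumours, 34.5, 29.7, 33.2, 28.3 and 25.4 CPM in DTC and 2.42, 3.59, 2.33, 2.7 and 6.15 CPM in macro-mets. The 5 BALB/c libraries all lay below the 5 NSG libraries in DTC and the hosts overlapped in tumours and macro-mets. The log2 fold change of BALB/c over NSG was 1.7 ± 0.4 in tumours (SE, adjusted p = 0.00264). In DTC, Ifih1 was lower in the BALB/c host (log2 fold change -1.36 ± 0.4 (SE), adjusted p = 0.0072). The Ifih1 difference in macro-mets was not called (1.14 ± 0.4 (SE), adjusted p = 0.142). Ifih1 rose by a log2 fold change of 2.19 ± 0.41 from NSG tumour to DTC (SE, adjusted p = 0.000266). Its log2 fold change was -1.51 ± 0.4 from BALB/c tumour to macro-met and -3.14 ± 0.43 from NSG DTC to macro-met (SE, adjusted p = 0.00428 and 8.45e-07), a fall in each. Of the Ifih1 calls, that between hosts in DTC did not hold with GC and length offsets (-0.63, adjusted p = 0.146). Its mean was highest in NSG DTC, at 30.2 ± 3.71 CPM (SD, n = 5), and lowest in NSG macro-mets, at 3.44 ± 1.6 CPM.

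Zbp1 (chr2:173206612-173218923) senses Z-form nucleic acid and can start necroptosis. For Zbp1, the BALB/c libraries gave 85, 79.3, 72.6, 58.2 and 63.2 CPM in tumours, 81, 54.3, 22.2, 113 and 57.2 CPM in DTC and 26.5, 35, 41.5, 56.3 and 40.4 CPM in macro-mets. Its NSG levels were 22.7, 16.1, 24.1, 17.2 and 16.7 CPM in tumours, 23, 14.4, 17.7, 13.2 and 14.3 CPM in DTC and 12.4, 14.3, 12, 10.4 and 11.1 CPM in macro-mets. With Zbp1, the 5 BALB/c libraries all lay above the 5 NSG libraries in tumours and macro-mets and the hosts overlapped in DTC. On the log2 scale Zbp1 was higher in BALB/c in tumours (1.89), in DTC (1.99) and in macro-mets (1.73). Between stages Zbp1 fell from BALB/c DTC to macro-met (-0.71), from BALB/c tumour to macro-met (-0.84) and from NSG tumour to macro-met (-0.68). The Zbp1 call from BALB/c DTC to macro-met was lost without BALB/c DTC replicate 1 or 4 or without BALB/c macro-met replicate 1, 2, 3 or 5 (adjusted p = 0.0558 to 0.224), with the marker genes as a covariate (-0.47, adjusted p = 0.256) or without BALB/c DTC replicates 1 and 2 together (-0.68, adjusted p = 0.0973). Zbp1 was no longer called from NSG tumour to macro-met without NSG tumour replicate 1 or 3 or without NSG macro-met replicate 1, 3, 4 or 5 (adjusted p = 0.0549 to 0.0877). BALB/c DTC replicate 3 of Zbp1, at 22.2 CPM, was the library of that group nearest to the NSG values. Eif2ak2 (chr17:78852564-78882573) encodes PKR, which halts translation on binding double-stranded RNA, and its levels are given because it was among the few members lower in BALB/c DTC. Libraries of BALB/c mice held Eif2ak2 at 41.5, 45.4, 49, 23.1 and 45.7 CPM in tumours, at 45.2, 16, 21.3, 30.3 and 6.1 CPM in DTC and at 10.3, 7.15, 14.6, 24.4 and 15.6 CPM in macro-mets. In NSG mice the values were 32, 18.2, 18.8, 21.3 and 24.2 CPM in tumours, 75.4, 66.7, 68, 63.8 and 66.4 CPM in DTC and 7.34, 7.29, 4.4, 5.84 and 10.8 CPM in macro-mets. For Eif2ak2, the 5 BALB/c libraries all lay below the 5 NSG libraries in DTC and the hosts overlapped in tumours and macro-mets. It was lower in BALB/c in DTC (-1.52). It rose from NSG tumour to DTC (1.57) and fell from BALB/c tumour to macro-met (-1.5), from NSG DTC to macro-met (-3.26) and from NSG tumour to macro-met (-1.69).

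Both interferon-induced transcription factors were higher in BALB/c at all 3 stages. Irf7 (chr7:141262706-141266481) drives the interferon genes themselves. The BALB/c levels of Irf7 were 39.4, 58.5, 32.2, 28.2 and 41.5 CPM in tumours, 56.1, 35.8, 28.5, 61.8 and 36.9 CPM in DTC and 19.8, 28.5, 29.5, 28.5 and 28.4 CPM in macro-mets. The NSG libraries held Irf7 at 14, 12.8, 10.2, 12.6 and 15.6 CPM in tumours, 28.7, 22, 15.9, 19.3 and 17.5 CPM in DTC and 9.61, 9.75, 6.62, 11.1 and 9.75 CPM in macro-mets. The 5 BALB/c libraries all lay above the 5 NSG libraries in tumours and macro-mets and the hosts overlapped in DTC. Irf7 was higher in BALB/c than NSG hosts by a log2 fold change of 1.62 ± 0.21 in tumours, 1.08 ± 0.2 in DTC and 1.52 ± 0.21 in macro-mets (SE, adjusted p = 8.28e-07, 7.6e-05 and 1.23e-05). By stage, Irf7 rose by 0.66 ± 0.2 from NSG tumour to DTC on the log2 scale (SE, adjusted p = 0.0149). Irf7 fell between stages, with a log2 fold change of -0.7 ± 0.2 from BALB/c DTC to macro-met, -0.57 ± 0.2 from BALB/c tumour to macro-met and -1.14 ± 0.21 from NSG DTC to macro-met (SE, adjusted p = 0.00802, 0.0253 and 3.26e-05). Of the Irf7 calls, that from BALB/c DTC to macro-met did not hold without BALB/c DTC replicate 4 (adjusted p = 0.0525) or with the marker genes as a covariate (-0.57, adjusted p = 0.076). The Irf7 call from BALB/c tumour to macro-met was lost without BALB/c tumour replicate 2 or without BALB/c macro-met replicate 1 (adjusted p = 0.0692 to 0.13). Irf7 was no longer called from NSG tumour to DTC without NSG tumour replicate 3 or without NSG DTC replicate 1 (adjusted p = 0.0584 to 0.0848) or with the marker genes as a covariate (0.53, adjusted p = 0.134). Its NSG macro-met mean of 9.37 ± 1.66 CPM (SD, n = 5) was the lowest of the 6 groups. Irf9 (chr14:55603571-55610030) is the DNA-binding part of ISGF3. Irf9 was measured at 107, 132, 89.2, 79.3 and 116 CPM in BALB/c tumours, at 75.5, 61.7, 41.4, 86.7 and 76.9 CPM in BALB/c DTC and at 58.9, 73.9, 68.2, 70.8 and 73 CPM in BALB/c macro-mets. NSG levels of Irf9 were 50, 43.4, 41.5, 49.5 and 46.9 CPM in tumours, 59.6, 44.7, 46.6, 42.4 and 37.2 CPM in DTC and 34.4, 40.4, 30.9, 36.1 and 30.6 CPM in macro-mets. With Irf9, the 5 BALB/c libraries all lay above the 5 NSG libraries in tumours and macro-mets and the hosts overlapped in DTC. Irf9 was called higher in BALB/c in tumours (1.18), in DTC (0.57) and in macro-mets (1) on the log2 scale. By stage it fell from BALB/c tumour to DTC (-0.61), from BALB/c tumour to macro-met (-0.6), from NSG DTC to macro-met (-0.42) and from NSG tumour to macro-met (-0.42). Of the Irf9 calls, that from NSG DTC to macro-met did not hold without NSG DTC replicate 1 or without NSG macro-met replicate 5 (adjusted p = 0.0543 to 0.125). The Irf9 call from NSG tumour to macro-met was lost without NSG macro-met replicate 5 (adjusted p = 0.0557).

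The ISG15 system, in which the ubiquitin-like protein ISG15 is attached by ligases such as HERC6 and TRIM25 and removed by USP18, had 4 members (Isg15, Usp18, Herc6 and Trim25). Of these, 3 were higher in BALB/c tumours and macro-mets and 2 in BALB/c DTC. Isg15 (chr4:156199424-156200818) is the modifier itself, and its promoter holds the ISRE matches printed in capitals. For Isg15, the BALB/c libraries gave 29.3, 32.4, 29.7, 28.9 and 24.1 CPM in tumours, 66.6, 40.4, 25.4, 67.2 and 40.3 CPM in DTC and 16.9, 19, 25.4, 18.8 and 18.7 CPM in macro-mets. Its NSG levels were 16.4, 17.2, 17.9, 9.9 and 14.8 CPM in tumours, 24.7, 16.3, 12.1, 17.9 and 15.1 CPM in DTC and 7.67, 9.58, 6.21, 10.3 and 10.8 CPM in macro-mets. For Isg15, the 5 BALB/c libraries all lay above the 5 NSG libraries in tumours, DTC and macro-mets. BALB/c exceeded NSG in Isg15 by 0.92 ± 0.21 in tumours, 1.48 ± 0.22 in DTC and 1.15 ± 0.22 in macro-mets on the log2 scale (SE, adjusted p = 0.00185, 3.51e-06 and 0.00135). Isg15 rose by a log2 fold change of 0.73 ± 0.21 from BALB/c tumour to DTC (SE, adjusted p = 0.00639). Its log2 fold change was -1.28 ± 0.21 from BALB/c DTC to macro-met, -0.55 ± 0.21 from BALB/c tumour to macro-met, -0.96 ± 0.22 from NSG DTC to macro-met and -0.78 ± 0.22 from NSG tumour to macro-met (SE, adjusted p = 2.98e-05, 0.0419, 0.000524 and 0.00673), a fall in each. Isg15 was no longer called from BALB/c tumour to DTC with the marker genes as a covariate (0.29, adjusted p = 0.437). Of the Isg15 calls, that from BALB/c tumour to macro-met did not hold without BALB/c tumour replicate 1, 2 or 3 or without BALB/c macro-met replicate 1, 2, 4 or 5 (adjusted p = 0.0513 to 0.0868). Usp18 (chr6:121245906-121270917) removes ISG15 and also blocks signalling at IFNAR2. Libraries of BALB/c mice held Usp18 at 25.3, 54.2, 23.6, 21.6 and 29.4 CPM in tumours, at 31.8, 20.8, 12.5, 39.4 and 26.1 CPM in DTC and at 11.7, 13.9, 11.4, 14.2 and 14.1 CPM in macro-mets. In NSG mice the values were 16.8, 11.3, 11.7, 13.2 and 11.5 CPM in tumours, 15.7, 10.1, 12.4, 9.24 and 7.35 CPM in DTC and 3.58, 4.62, 4.25, 3.33 and 4.51 CPM in macro-mets. The 5 BALB/c libraries all lay above the 5 NSG libraries in tumours and macro-mets and the hosts overlapped in DTC. On the log2 scale Usp18 was higher in BALB/c in tumours (1.26), in DTC (1.25) and in macro-mets (1.68). Between stages Usp18 fell from BALB/c DTC to macro-met (-1), from BALB/c tumour to macro-met (-1.24), from NSG DTC to macro-met (-1.43) and from NSG tumour to macro-met (-1.67).

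The 4 IFIT members (Ifit1, Ifit2, Ifit3 and Ifit3b), which bind viral RNA and block its translation, all rose from NSG tumour to DTC (16% of all genes) and all fell from NSG DTC to macro-met (22.4% of all genes). Between hosts, 4 of 4 were higher in BALB/c tumours, 3 in macro-mets and 1 in DTC. Ifit3 and Ifit3b are close copies, and reads may be shared between them. Ifit1 (chr19:34640871-34650009) recognises RNA without host cap methylation. The BALB/c levels of Ifit1 were 14.5, 14.5, 6.72, 6.6 and 13.2 CPM in tumours, 23.6, 12, 9.33, 19.8 and 6 CPM in DTC and 2.38, 4.44, 5.05, 7.09 and 6.24 CPM in macro-mets. The NSG libraries held Ifit1 at 3.7, 3.09, 3.11, 2.78 and 2.34 CPM in tumours, 17.3, 10.4, 13.9, 9.75 and 7.18 CPM in DTC and 1.16, 1.6, 0.489, 0.722 and 2.25 CPM in macro-mets. With Ifit1, the 5 BALB/c libraries all lay above the 5 NSG libraries in tumours and macro-mets and the hosts overlapped in DTC. The log2 fold change of BALB/c over NSG was 1.89 ± 0.37 in tumours and 2.02 ± 0.38 in macro-mets (SE, adjusted p = 0.000354 and 0.00162). The Ifit1 difference in DTC was not called. By stage, Ifit1 rose by 1.96 ± 0.37 from NSG tumour to DTC on the log2 scale (SE, adjusted p = 0.000275). Ifit1 fell between stages, with a log2 fold change of -1.49 ± 0.36 from BALB/c DTC to macro-met, -1.14 ± 0.36 from BALB/c tumour to macro-met, -3.23 ± 0.4 from NSG DTC to macro-met and -1.27 ± 0.38 from NSG tumour to macro-met (SE, adjusted p = 0.00232, 0.0138, 1.2e-07 and 0.0114). The Ifit1 call from BALB/c DTC to macro-met was lost with the marker genes as a covariate (-1, adjusted p = 0.0573). Ifit1 was no longer called from BALB/c tumour to macro-met with GC and length offsets (-0.6, adjusted p = 0.102). Ifit3 (chr19:34583531-34588731) stabilises the IFIT complex. Ifit3 was measured at 7.81, 13.4, 5.97, 5.4 and 9.69 CPM in BALB/c tumours, at 23.8, 11.9, 7.53, 25.1 and 11.6 CPM in BALB/c DTC and at 4.79, 5.3, 7.44, 5.54 and 5.29 CPM in BALB/c macro-mets. NSG levels of Ifit3 were 1.18, 1.66, 1.35, 1.52 and 1.77 CPM in tumours, 6.56, 5, 6.13, 6.05 and 3.38 CPM in DTC and 1.31, 1.55, 0.896, 0.941 and 1.62 CPM in macro-mets. For Ifit3, the 5 BALB/c libraries all lay above the 5 NSG libraries in tumours, DTC and macro-mets. Calls for Ifit3 as higher in BALB/c were made in tumours (2.5), in DTC (1.56) and in macro-mets (2.16), as differences on the log2 scale. It rose from BALB/c tumour to DTC (0.92) and from NSG tumour to DTC (1.86) and fell from BALB/c DTC to macro-met (-1.5) and from NSG DTC to macro-met (-2.1). Of the Ifit3 calls, that from BALB/c tumour to DTC did not hold without BALB/c DTC replicate 4 (adjusted p = 0.0607) or with the marker genes as a covariate (0.46, adjusted p = 0.352).

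The 6 OAS members (Oas1a, Oas1g, Oas2, Oas3, Oasl1 and Oasl2), which sense double-stranded RNA and, where catalytic, make the short oligoadenylates that activate RNase L, changed together between DTC and macro-met. All 6 fell at that step in both hosts (14.2% of all genes in BALB/c and 22.4% in NSG mice), and all 6 were higher in BALB/c than NSG DTC (17.1% of all genes). In tumours and in macro-mets, 5 of 6 were higher in BALB/c, with Oasl1 not called. Oas1a and Oas1g are close copies that may share reads. Oas1a (chr5:120896256-120907521) is a catalytic member. For Oas1a, the BALB/c libraries gave 64.4, 85.3, 52.2, 53.3 and 61.6 CPM in tumours, 110, 75.7, 54.4, 134 and 68.4 CPM in DTC and 29.4, 31.2, 36.2, 32.8 and 31.5 CPM in macro-mets. Its NSG levels were 33.1, 28.1, 36.9, 32.4 and 30.1 CPM in tumours, 50, 38.2, 38.6, 36 and 35 CPM in DTC and 15.8, 16.2, 13.4, 18.3 and 14.7 CPM in macro-mets. The 5 BALB/c libraries all lay above the 5 NSG libraries in tumours, DTC and macro-mets. Oas1a was higher in BALB/c than NSG hosts by a log2 fold change of 0.98 ± 0.17 in tumours, 1.16 ± 0.17 in DTC and 1.04 ± 0.17 in macro-mets (SE, adjusted p = 7.58e-05, 3.63e-06 and 0.000261). Oas1a rose by a log2 fold change of 0.48 ± 0.17 from BALB/c tumour to DTC (SE, adjusted p = 0.0217). Its log2 fold change was -1.46 ± 0.17 from BALB/c DTC to macro-met, -0.98 ± 0.17 from BALB/c tumour to macro-met, -1.34 ± 0.17 from NSG DTC to macro-met and -1.04 ± 0.17 from NSG tumour to macro-met (SE, adjusted p = 1.23e-07, 5.64e-05, 2.35e-07 and 3.81e-05), a fall in each. The Oas1a call from BALB/c tumour to DTC was lost without BALB/c tumour replicate 3 or 4 or without BALB/c DTC replicate 1 or 4 (adjusted p = 0.0738 to 0.199), with GC and length offsets (0.35, adjusted p = 0.0691), with the marker genes as a covariate (0.21, adjusted p = 0.504), without BALB/c DTC replicates 1 and 2 together (0.42, adjusted p = 0.0794) or without BALB/c tumour replicates 4 and 5 together (0.37, adjusted p = 0.137). Oas2 (chr5:120730333-120749853) is the scarcest of the family in these cells. Libraries of BALB/c mice held Oas2 at 6.51, 18.5, 3.05, 8.88 and 11.7 CPM in tumours, at 17.4, 5.7, 7.19, 8.79 and 6.93 CPM in DTC and at 1.85, 1.82, 1.63, 4.15 and 1.39 CPM in macro-mets. In NSG mice the values were 3.04, 5.52, 2.85, 3.66 and 3.48 CPM in tumours, 6.1, 5.77, 5.77, 3.3 and 2.16 CPM in DTC and 0.479, 0.541, 0.163, 0.596 and 0.279 CPM in macro-mets. With Oas2, the 5 BALB/c libraries all lay above the 5 NSG libraries in macro-mets and the hosts overlapped in tumours and DTC. Oas2 was called higher in BALB/c in tumours (1.4), in DTC (0.99) and in macro-mets (2.41) on the log2 scale. By stage it fell from BALB/c DTC to macro-met (-2.08), from BALB/c tumour to macro-met (-2.16), from NSG DTC to macro-met (-3.5) and from NSG tumour to macro-met (-3.18). Oas2 was no longer called between hosts in tumours without BALB/c tumour replicate 2 (adjusted p = 0.0642). Of the Oas2 calls, that between hosts in DTC did not hold without BALB/c DTC replicate 1, 3, 4 or 5 or without NSG DTC replicate 3, 4 or 5 (adjusted p = 0.0503 to 0.221), with GC and length offsets (0.96, adjusted p = 0.0601), with the marker genes as a covariate (0.59, adjusted p = 0.274) or without BALB/c DTC replicates 1 and 2 together (0.73, adjusted p = 0.197).

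Oasl2 (chr5:114896936-114912234) is an OAS-like protein with ubiquitin-like domains. The BALB/c levels of Oasl2 were 131, 162, 98.4, 84.7 and 131 CPM in tumours, 126, 86.4, 53.8, 127 and 76.6 CPM in DTC and 23.6, 35.5, 43.9, 60.4 and 40.6 CPM in macro-mets. The NSG libraries held Oasl2 at 54.1, 46.6, 49.2, 50.4 and 43.2 CPM in tumours, 72, 64.1, 60, 46.3 and 37.7 CPM in DTC and 14.8, 20.8, 5.28, 15.7 and 10.7 CPM in macro-mets. For Oasl2, the 5 BALB/c libraries all lay above the 5 NSG libraries in tumours and macro-mets and the hosts overlapped in DTC. On the log2 scale Oasl2 was higher in BALB/c in tumours (1.32), in DTC (0.75) and in macro-mets (1.6). Between stages Oasl2 fell from BALB/c DTC to macro-met (-1.2), from BALB/c tumour to macro-met (-1.57), from NSG DTC to macro-met (-2.06) and from NSG tumour to macro-met (-1.86). The Oasl2 call between hosts in DTC was lost without BALB/c DTC replicate 1 or 4 or without NSG DTC replicate 4 or 5 (adjusted p = 0.0685 to 0.107), with the marker genes as a covariate (0.46, adjusted p = 0.22) or without BALB/c DTC replicates 1 and 2 together (0.62, adjusted p = 0.132).

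Of the 6 GTPase and membrane or nucleotide effectors (Mx1, Mx2, Rsad2, Cmpk2, Bst2 and Samd9l), all were higher in BALB/c tumours, 5 in BALB/c macro-mets, and in DTC 2 were higher and 1 lower. Mx1 (chr16:97447035-97462907) encodes a dynamin-like GTPase against influenza virus, and many inbred mouse strains carry a disrupted allele of it. Mx1 was measured at 1.75, 4.88, 0.716, 3.85 and 3.37 CPM in BALB/c tumours, at 3.65, 3.87, 1.43, 7.01 and 2.25 CPM in BALB/c DTC and at 1.65, 1.05, 1.66, 1.25 and 0.865 CPM in BALB/c macro-mets. NSG levels of Mx1 were 0.236, 0.233, 0.299, 0.32 and 0.203 CPM in tumours, 2.78, 1.68, 2.42, 2.09 and 1.62 CPM in DTC and 0.24, 0.366, 0.31, 0.502 and 0.582 CPM in macro-mets. The 5 BALB/c libraries all lay above the 5 NSG libraries in tumours and macro-mets and the hosts overlapped in DTC. BALB/c exceeded NSG in Mx1 by 3.48 ± 0.45 in tumours and 1.7 ± 0.42 in macro-mets on the log2 scale (SE, adjusted p = 9.27e-07 and 0.0187). The Mx1 difference in DTC was not called (0.78 ± 0.4 (SE), adjusted p = 0.124). By stage, Mx1 rose by 3.02 ± 0.44 from NSG tumour to DTC on the log2 scale (SE, adjusted p = 1.19e-05). Mx1 fell between stages, with a log2 fold change of -1.49 ± 0.4 from BALB/c DTC to macro-met, -1.17 ± 0.4 from BALB/c tumour to macro-met and -2.41 ± 0.43 from NSG DTC to macro-met (SE, adjusted p = 0.00529, 0.0216 and 2.64e-05). Mx1 was no longer called between hosts in macro-mets without NSG macro-met replicate 1 (adjusted p = 0.0544). Of the Mx1 calls, that from BALB/c tumour to macro-met did not hold without BALB/c tumour replicate 2 or without BALB/c macro-met replicate 2 or 5 (adjusted p = 0.0511 to 0.0891) or without BALB/c tumour replicates 4 and 5 together (-0.94, adjusted p = 0.122). Rsad2 (chr12:26442746-26456452) encodes viperin, which makes a chain-terminating nucleotide. For Rsad2, the BALB/c libraries gave 4.23, 4.29, 4.87, 1.51 and 4.72 CPM in tumours, 10.4, 4.2, 4.69, 10.9 and 3.7 CPM in DTC and 2.54, 1.61, 3.17, 2.99 and 3.97 CPM in macro-mets. Its NSG levels were 0.787, 1.99, 0.0352, 1.65 and 2.16 CPM in tumours, 3.53, 2.08, 4.77, 1.71 and 2.13 CPM in DTC and 0.369, 0.279, 0.717, 1.13 and 0.532 CPM in macro-mets. With Rsad2, the 5 BALB/c libraries all lay above the 5 NSG libraries in macro-mets and the hosts overlapped in tumours and DTC. Calls for Rsad2 as higher in BALB/c were made in tumours (1.57) and in macro-mets (2.25), as differences on the log2 scale. It fell from NSG DTC to macro-met (-2.25). The Rsad2 call between hosts in tumours was lost without BALB/c tumour replicate 2, 3 or 5 or without NSG tumour replicate 1 (adjusted p = 0.0548 to 0.0764) or with GC and length offsets (1.32, adjusted p = 0.0521). Rsad2 was no longer called between hosts in macro-mets without BALB/c macro-met replicate 5 or without NSG macro-met replicate 1 or 2 (adjusted p = 0.0501 to 0.0597).

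Bst2 (chr8:71534255-71537456) encodes tetherin and was per transcript length the most abundant member. Libraries of BALB/c mice held Bst2 at 312, 327, 352, 265 and 300 CPM in tumours, at 385, 208, 186, 429 and 320 CPM in DTC and at 114, 175, 169, 170 and 178 CPM in macro-mets. In NSG mice the values were 113, 103, 101, 80.5 and 68.1 CPM in tumours, 84.7, 91, 48.4, 84.2 and 74.2 CPM in DTC and 48, 57.6, 46.5, 67.1 and 60.8 CPM in macro-mets. For Bst2, the 5 BALB/c libraries all lay above the 5 NSG libraries in tumours, DTC and macro-mets. The log2 fold change of BALB/c over NSG was 1.74 ± 0.2 in tumours, 2 ± 0.2 in DTC and 1.53 ± 0.2 in macro-mets (SE, adjusted p = 1.28e-07, 1.77e-08 and 6.36e-06). Its log2 fold change was -0.92 ± 0.19 from BALB/c DTC to macro-met, -0.95 ± 0.19 from BALB/c tumour to macro-met and -0.73 ± 0.19 from NSG tumour to macro-met (SE, adjusted p = 0.000451, 0.000323 and 0.00447), a fall in each. Its BALB/c tumour and DTC means, at 311 ± 32.2 and 306 ± 107 CPM (SD, n = 5), were the highest, with the DTC libraries more spread. Samd9l (chr6:3372257-3399572) represses translation and restricts poxviruses, and had the largest change from NSG DTC to macro-met of the 41 members. The BALB/c levels of Samd9l were 12.5, 22.6, 10.1, 3.83 and 15.6 CPM in tumours, 23, 3.85, 7.9, 9.99 and 1.91 CPM in DTC and 1.71, 1.08, 2.24, 2.44 and 3.09 CPM in macro-mets. The NSG libraries held Samd9l at 5.88, 2.99, 5.41, 4.8 and 2.56 CPM in tumours, 41.2, 31.2, 50.3, 36.4 and 37.1 CPM in DTC and 1.12, 0.331, 1.01, 0.941 and 0.582 CPM in macro-mets. The 5 BALB/c libraries all lay below the 5 NSG libraries in DTC and the hosts overlapped in tumours and macro-mets. Samd9l was called higher in BALB/c in tumours (1.57) on the log2 scale. It was lower in BALB/c in DTC (-2.07). By stage it rose from NSG tumour to DTC (3.18) and fell from BALB/c DTC to macro-met (-2.14), from BALB/c tumour to macro-met (-2.61), from NSG DTC to macro-met (-5.62) and from NSG tumour to macro-met (-2.44). Of the Samd9l calls, that between hosts in tumours did not hold without BALB/c tumour replicate 2 (adjusted p = 0.0578).

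**Figure D4:**
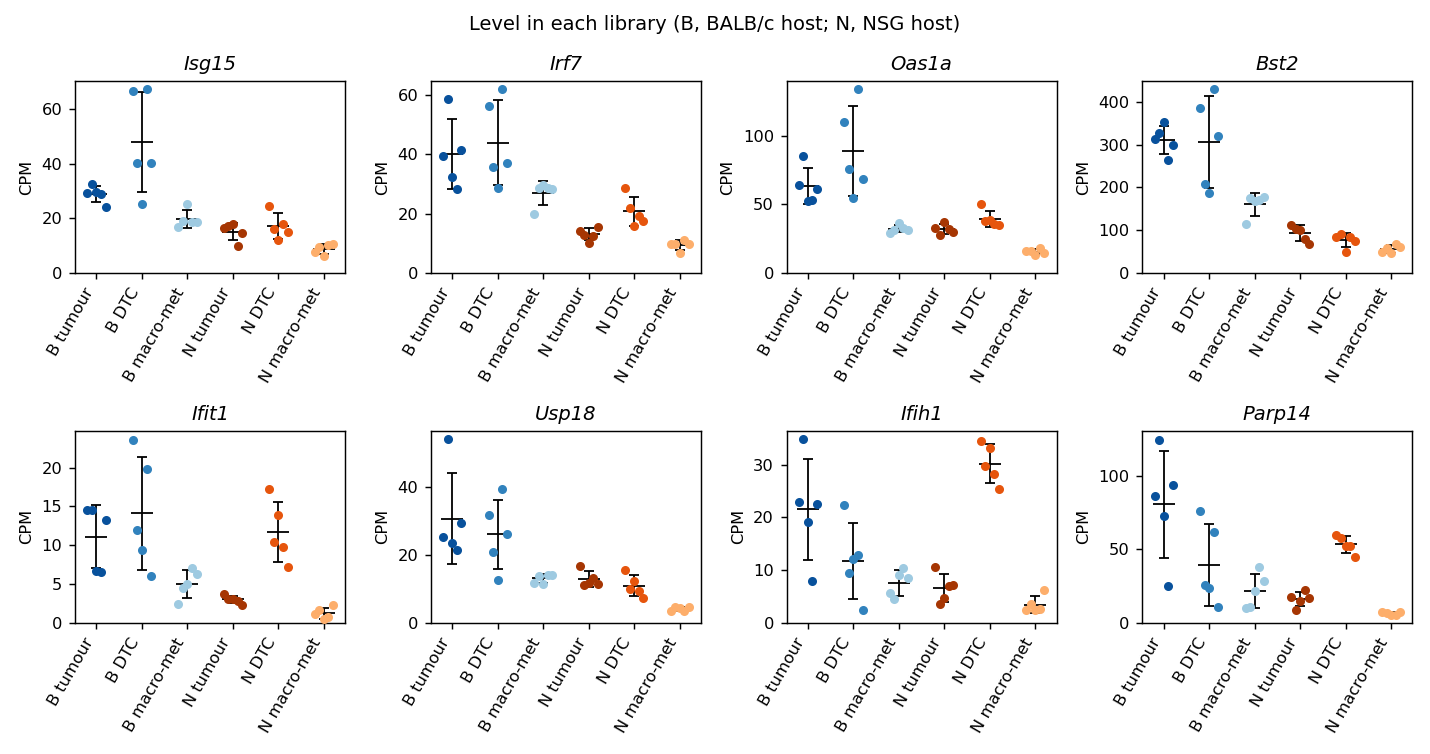
Levels of Isg15, Irf7, Oas1a, Bst2, Ifit1, Usp18, Ifih1 and Parp14 in CPM (y axis) in each library by group (x axis), with points for libraries and the mean ± SD of 5 libraries. Bst2 separates the hosts at each stage, whereas Ifih1 is highest in NSG DTC, where its mean is 30.2 CPM against 11.8 CPM in BALB/c DTC.

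The ADP-ribosyltransferase complex of Parp9, Parp14 and Dtx3l, which modifies host chromatin in the interferon response, was higher in BALB/c in tumours and macro-mets in all 3 members and in none in DTC. All 3 fell from BALB/c tumour to DTC (21% of all genes) and from NSG DTC to macro-met (22.4% of all genes), and none of the 3 calls from BALB/c tumour to DTC held in every setting. The Parp9 call from BALB/c tumour to DTC was lost without BALB/c tumour replicate 2 or 5 or without BALB/c DTC replicate 3 or 5 (adjusted p = 0.0635 to 0.154). Dtx3l was no longer called from NSG DTC to macro-met without NSG DTC replicate 1 or 3 (adjusted p = 0.0583 to 0.0678) or with GC and length offsets (-0.33, adjusted p = 0.119). The annotated spans of Parp9 (chr16:35938470-35972605, plus strand) and Dtx3l (chr16:35926511-35939151, minus strand) overlap, and whether counting used strand is not given in the sources used here, so their shared stretch cannot be told apart. Parp14 (chr16:35832874-35871544) encodes a large ADP-ribosyltransferase with macrodomains. Parp14 was measured at 86.7, 125, 72.8, 24.9 and 93.7 CPM in BALB/c tumours, at 76.1, 25.6, 23.5, 61.6 and 10.6 CPM in BALB/c DTC and at 10.2, 10.9, 21.6, 38.1 and 28.2 CPM in BALB/c macro-mets. NSG levels of Parp14 were 17.3, 8.74, 14.9, 22.6 and 17 CPM in tumours, 59.7, 57.7, 52.7, 52.3 and 44.7 CPM in DTC and 7.61, 6.87, 5.12, 5.08 and 7.34 CPM in macro-mets. With Parp14, the 5 BALB/c libraries all lay above the 5 NSG libraries in tumours and macro-mets and the hosts overlapped in DTC. Parp14 was higher in BALB/c than NSG hosts by a log2 fold change of 2.32 ± 0.43 in tumours and 1.77 ± 0.43 in macro-mets (SE, adjusted p = 0.000211 and 0.0181). The Parp14 difference in DTC was not called. By stage, Parp14 rose by 1.73 ± 0.42 from NSG tumour to DTC on the log2 scale (SE, adjusted p = 0.00316). Parp14 fell between stages, with a log2 fold change of -1.03 ± 0.41 from BALB/c tumour to DTC, -1.89 ± 0.42 from BALB/c tumour to macro-met, -3.06 ± 0.45 from NSG DTC to macro-met and -1.33 ± 0.42 from NSG tumour to macro-met (SE, adjusted p = 0.0461, 0.000969, 2.51e-06 and 0.0182). Of the Parp14 calls, that between hosts in macro-mets did not hold without BALB/c macro-met replicate 4 (adjusted p = 0.0759). The Parp14 call from BALB/c tumour to DTC was lost without BALB/c tumour replicate 1, 2 or 5 or without BALB/c DTC replicate 2, 3 or 5 (adjusted p = 0.057 to 0.137) or with GC and length offsets (-0.82, adjusted p = 0.079). Parp14 was no longer called from NSG tumour to DTC with the marker genes as a covariate (1.18, adjusted p = 0.087).

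Among the 10 other induced genes (Ifi35, Ifi44, Ifi27, Trim30a, Rtp4, Xaf1, Rnf213, Lgals3bp, Epsti1 and Helz2), 6 were higher in BALB/c tumours, 6 in BALB/c macro-mets and 5 in BALB/c DTC. Ifi44, a cytoplasmic protein of uncertain function, had the highest log2 fold change between hosts in macro-mets (3.41 ± 0.55 (SE), adjusted p = 0.000284), from 0.847 ± 0.486 to 9.12 ± 4.38 CPM (mean ± SD, n = 5). Rnf213 (chr11:119393100-119487418) encodes a giant ubiquitin ligase that coats intracellular bacteria. For Rnf213, the BALB/c libraries gave 137, 143, 107, 54.2 and 142 CPM in tumours, 118, 126, 93.6, 128 and 101 CPM in DTC and 63.1, 60.5, 86, 125 and 91.6 CPM in macro-mets. Its NSG levels were 68.7, 83.4, 57.2, 100 and 99.9 CPM in tumours, 127, 216, 169, 164 and 121 CPM in DTC and 56.5, 49.7, 28.5, 30.9 and 47.1 CPM in macro-mets. For Rnf213, the 5 BALB/c libraries all lay above the 5 NSG libraries in macro-mets and the hosts overlapped in tumours and DTC. On the log2 scale Rnf213 was higher in BALB/c in macro-mets (1). Between stages Rnf213 rose from NSG tumour to DTC (0.96) and fell from NSG DTC to macro-met (-1.91) and from NSG tumour to macro-met (-0.94). Of the Rnf213 calls, that between hosts in macro-mets did not hold without BALB/c macro-met replicate 4 or without NSG macro-met replicate 3 or 4 (adjusted p = 0.051 to 0.0702). The Rnf213 call from NSG tumour to DTC was lost with GC and length offsets (0.53, adjusted p = 0.114).

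The interaction terms ask whether a change between stages differed between hosts. For DTC against tumour, the change was lower in BALB/c than in NSG hosts for 16 of 41 members and higher for none, where 33.4% of genes were called in either direction and 18.4% as lower. The members' median difference was -0.57 against -0.05 over all genes. It was led by Samd9l (-3.65 ± 0.66 (SE), adjusted p = 0.000106), Ifih1 (-3.06 ± 0.57 (SE), adjusted p = 0.000141) and Eif2ak2 (-2.36 ± 0.49 (SE), adjusted p = 0.000438), which rose in NSG DTC and did not pass the test in BALB/c. For macro-met against DTC, 11 members were higher and 2 lower, where 28.1% of genes were called, 16.6% as higher and 11.6% as lower, with a median of 0.55 against -0.03. Eif2ak2 (2.54 ± 0.49 (SE), adjusted p = 0.00041), Samd9l (3.48 ± 0.68 (SE), adjusted p = 0.000462) and Rnf213 (1.5 ± 0.34 (SE), adjusted p = 0.00141) led, and Lgals3bp (-0.41 ± 0.14 (SE), adjusted p = 0.0274) and Ifi35 (-0.51 ± 0.18 (SE), adjusted p = 0.0313) were the 2 lower. These 2 interactions share the DTC libraries. For macro-met against tumour no member was called, where 5.23% of genes were. There edgeR gave 1 of 41 members an unadjusted p under 0.05, the smallest adjusted p was 0.0738 (Mx1), and DESeq2 called 1.

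The GC content of the members moved with these interaction values. It ranged from 39% of exonic bases in Samd9l to 56.9% in Bst2, with a median of 48.8%. Across the 41 members, Spearman's rho between GC content and the difference was 0.809 for DTC against tumour, where it was 0.476 across all genes. For macro-met against DTC it was -0.84, and -0.478 across all genes. The members share libraries, so these values are descriptions. The 20 members of lower GC content had a median difference of -1.29 for DTC against tumour, with 13 called lower, and the 21 others a median of -0.18, with 3 called lower. With the offsets described next these medians were -0.62 and -0.14, and that of all 41 members was -0.34 in place of -0.57. Libraries differed in the same property: the rank correlation of each library's departure from the mean with gene GC content was -0.613 to -0.328 in NSG DTC and -0.101 to 0.455 in BALB/c DTC. In tumours it was -0.276 to -0.106 with BALB/c and -0.204 to 0.0332 with NSG hosts, and in macro-mets 0.0534 to 0.402 with BALB/c and 0.197 to 0.414 with NSG hosts.

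With offsets for GC content and length in each library, 9 members were called for DTC against tumour, in place of 16, all lower. Of the 16, 8 kept their call: Mx1 (-2.54), Samd9l (-2.13), Ifih1 (-2.07), Parp14 (-2.04), Eif2ak2 (-1.65), Mx2, Irf9 and Rtp4. Irf7 was called in addition (-0.9). For macro-met against DTC 4 members were called in place of 13: Samd9l (2.35), Eif2ak2 (1.9), Ifih1 (1.63) and Irf7 (0.84), and Lgals3bp changed sign (0.02, adjusted p = 0.955). Rnf213 was then not called (0.91, adjusted p = 0.0753). Ifi35 lost its call with the same offsets (-0.16, adjusted p = 0.57). The Ifi35 call was also lost without BALB/c DTC replicate 1 or 4, without BALB/c macro-met replicate 1 or without NSG macro-met replicate 1, 2, 4 or 5 (adjusted p = 0.0549 to 0.111). The Lgals3bp call was also lost without BALB/c DTC replicate 4 or 5, without NSG DTC replicate 3 or 5, without BALB/c macro-met replicate 1 or 4 or without NSG macro-met replicate 1, 3, 4 or 5 (adjusted p = 0.0525 to 0.113). The rho across members fell to 0.425 and -0.562. From NSG tumour to DTC, offsets left 17 members higher and 1 lower (Trim30a, -1.31). No member had the opposite call with and without offsets in any comparison.

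**Figure D5:**
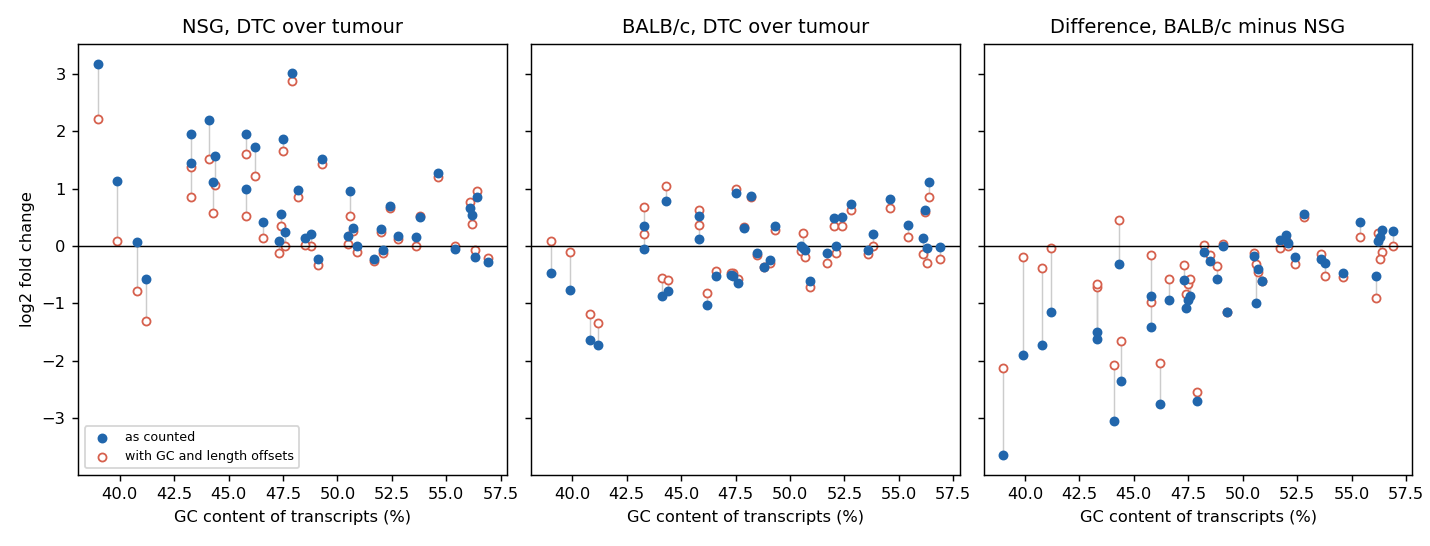
Log2 change from tumour to DTC (y axis) of the 41 members against the GC content of their exons (x axis, percent), in NSG hosts, in BALB/c hosts, and as the difference between hosts, with values as counted and with GC and length offsets. In the panel of the difference, rho is 0.809 as counted and 0.425 with offsets, and Samd9l, at 39% GC, is lowest at -3.65.

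Genes upstream in the pathway were read from lists fixed for this comparison. Of 21 interferon ligand genes, 1 (Ifnk) had enough counts to be tested. Ifnb1, the interferon beta gene, had 21 counts in all, spread over 7 of the 30 libraries, and Ifng, the interferon gamma gene, 19 counts in 6 libraries. Of 6 receptor genes, 1 was higher and 1 lower in BALB/c tumours, 1 and 1 in BALB/c DTC, and none in macro-mets. Ifnar1 averaged 87.4, 103 and 111 CPM in the tumour, DTC and macro-met groups of BALB/c mice and 123, 133 and 105 CPM in the NSG groups (n = 5 each). It was lower in BALB/c in tumours (log2 fold change -0.49) and DTC (-0.36), the latter not with GC offsets. Ifnar2 averaged 60.5, 50.2 and 70.7 CPM in BALB/c and 51, 43.9 and 69.3 CPM in NSG groups and was called between hosts at no stage. It was higher in macro-mets than in DTC in both hosts (0.49 in BALB/c and 0.66 in NSG).

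Stat2, a subunit of ISGF3, averaged 96.5, 63.9 and 59.3 CPM in BALB/c and 28.2, 34.6 and 25.9 CPM in NSG groups, and was higher in BALB/c by 1.77, 0.88 and 1.2 on the log2 scale, the DTC call not on either log2(TPM) scale (adjusted p up to 0.101). The kinase genes Jak1 (-0.72) and Jak2 (-1.78) were lower in BALB/c DTC, and Jak2 was higher in BALB/c tumours (1.21), a call lost without BALB/c tumour replicate 2 (adjusted p = 0.0504). Tyk2 and Stat3 were called between hosts at no stage. For these lists, 23.6%, 38.8% and 2.64% of all genes were called between hosts in tumours, DTC and macro-mets. Negative regulators (9 of 10 tested) had 3 higher in BALB/c tumours, 5 higher and 2 lower in DTC, and 3 higher in macro-mets, and the genes of interferon induction (13 of 14 tested) had 2 higher, 7 higher and 3 lower, and 1 higher at the same stages.

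A list of 42 other interferon-stimulated genes, of which 41 were tested, had 23 higher in BALB/c tumours and none lower, 24 higher and 6 lower in DTC, and 17 higher and none lower in macro-mets, against the same shares of all genes. The medians were 1.03, 0.52 and 0.54, below the 1.32, 0.75 and 1.26 of the 41 antiviral members, a difference that was not tested. From NSG DTC to macro-met, 18 of these genes fell and 5 rose, where 22.4% of all genes fell and 21.3% rose. Genes known mainly as targets of interferon gamma (16 genes) stood further apart between hosts, with medians of 5.65, 4.33 and 4.1 and with 15, 16 and 15 higher. The other gene in tumours, Irf1, was lower (-0.59), a call lost in 8 of 20 other settings (adjusted p up to 0.0668), and none was lower in DTC and macro-mets. Cd74, the invariant chain of MHC class II, was higher in BALB/c by 7.32, 5.87 and 5.57, and H2-Eb1, a class II chain, by 10.18, 8.36 and 8.86 on the log2 scale. Macrophages and dendritic cells also express both genes, and the part of such cells in these values was not tested.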

How the data were processed

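Total RNA of sorted 4T1-tdTomato cells was extracted with a miRNeasy Micro kit, per the labels' protocols, and sequenced in bulk as 30 libraries of 29832098 to 65621525 gene counts, a depth that left all 41 members above 0 in each library and limits precision for Rsad2 and Mx1. The deposited count table holds raw whole-number counts per gene made by the authors, and a deposited table of TPM values (transcripts relative to length and total) made by the authors gave levels per length. Trimmomatic 0.36, STAR 2.5.2b and the build GRCm38 (mm10) are named in the submitters' processing notes. The counting tool, its use of strand, the annotation and the lengths behind TPM are not given in the sources used here. Gene spans, exonic length and GC content came from GENCODE M21 through the gene IDs, which matched 49056 of 49315.

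Groups came from the labels. Counts were scaled by TMM and fitted over all 6 groups with edgeR 4.0.16 (quasi-likelihood, robust) in R 4.3.3 with 24 residual degrees of freedom. The edgeR filter on low counts kept 17774 genes, which held 99.969% of counts, and 9 pairwise differences and 3 interactions were tested with Benjamini-Hochberg adjustment over these genes. The fit was tested on simulated data. log2 CPM values used a prior count of 2. The alternatives were RLE size factors, offsets per library from a spline of 5 degrees of freedom on GC content and length, no filter on low counts, the mean log2 CPM of endothelial, lung epithelium and macrophage markers as a covariate, limma 3.58.1 with voom, limma-trend on log2(TPM + 1) and log2(TPM + 0.1), DESeq2 1.42.0, a fit on the compared libraries alone, and leaving out each library in turn. Fits without BALB/c DTC replicates 1 and 2, or without BALB/c tumour replicates 4 and 5, were added after seeing the data.

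The members and all gene lists were chosen with earlier results of these data known. Values per library were given for 17 listed members covering the roles, and fold changes in each comparison for up to 3 members per direction with the smallest adjusted p and for members called against the majority. Eif2ak2, Samd9l, Lgals3bp, Ifi44, Trim30a and Oasl1 were added after their values were seen. Genes are described by counts and medians, and no set test was run. Promoters came from RefSeq (GRCm38.p6). Of the pathway lists, the genes named in the text are given, and some results are not reported here.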

Additional observations from a re-analysis of the deposited data

Results flagged for a closer look

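The levels of the 17 members given per library, and the members' mean log2 CPM, were examined for a library far from the other 4 of its group. In 10 of 108 such groups a library stood apart by Dixon's criterion. For independent and normally distributed values, chance gives about 1 in 20. The 108 groups of values come from the same 30 libraries, so whether 10 exceeds chance cannot be told. BALB/c macro-met replicate 3 was the highest of its group for Isg15 (25.4 CPM) and Ifit3 (7.44 CPM). BALB/c macro-met replicate 1 was the lowest for Bst2 (114 CPM) and Irf7 (19.8 CPM), and replicate 4 the highest for Oas2 (4.15 CPM). BALB/c tumour replicate 2 was high for Usp18 (54.2 CPM) and replicate 4 low for Rsad2 (1.51 CPM). BALB/c DTC replicate 1, which held the most lung epithelium RNA, was high for Oas2 (17.4 CPM), and NSG DTC replicate 1 was high for Oas1a (50 CPM). NSG macro-met replicate 3 had the lowest mean of the 41 members in its group, at 2.5.

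The change between stages differed between hosts for 16 of 41 members from tumour to DTC, where 33.4% of all genes were called. The log2 differences were -3.65 for Samd9l, -3.06 for Ifih1 and -2.36 for Eif2ak2 (edgeR interaction, adjusted p = 0.000106, 0.000141 and 0.000438). From DTC to macro-met the change differed for 13 members, where 28.1% of all genes were called. The differences were 2.54 for Eif2ak2, 3.48 for Samd9l and 1.5 for Rnf213, and -0.41 for Lgals3bp and -0.51 for Ifi35 in the opposite direction (edgeR interaction, adjusted p = 0.00041, 0.000462, 0.00141, 0.0274 and 0.0313). With GC and length offsets, 9 members were called in place of 16 and 4 in place of 13. Rnf213, Lgals3bp and Ifi35 were then not called from DTC to macro-met.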

How the results depend on the processing

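No paired analysis was possible because the replicate numbers of the 6 groups only name libraries and the labels tie no library of a group to a library of another group. Counts of called members stayed within 1.5 times the reported count except in these cases. From BALB/c tumour to DTC, a fit on the compared libraries alone called 8 in place of 16. From NSG tumour to DTC, the marker covariate called 11 in place of 19. GC and length offsets called 9 members in place of 16 in the DTC against tumour interaction, 8 of them among the 16, and 4 in place of 13 in that of macro-met against DTC, 3 of them among the 13. In the macro-met against tumour interaction DESeq2 called 1 member, and leaving out single libraries gave 0 to 1, the 1 without BALB/c tumour replicate 3. For a single member, the direction turned for Lgals3bp in the macro-met against DTC interaction (0.02 with GC offsets, -0.41 as reported). The causes were not tested. Leaving out each library gave 13 to 18 calls from BALB/c tumour to DTC, 18 to 25 from BALB/c DTC to macro-met, 19 to 29 from BALB/c tumour to macro-met, 15 to 20, 30 to 34 and 18 to 21 in the same steps of NSG hosts with DTC to macro-met second, and 29 to 37, 20 to 24 and 27 to 30 between hosts in tumours, DTC and macro-mets. In the interactions of DTC against tumour and of macro-met against DTC it gave 13 to 20 and 10 to 14.

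The split of higher and lower members moved by over 10 percentage points in 3 comparisons. From BALB/c tumour to DTC it was 9 and 7 as reported, 2 and 11 with the marker covariate, 8 and 11 with voom, 7 and 11 on log2(TPM + 1), 6 and 10 on log2(TPM + 0.1), and 7 and 11 or 4 and 9 without the 2 BALB/c DTC libraries with most lung RNA or the 2 BALB/c tumour libraries with most Ptprc. Between hosts in DTC it was 20 and 3, against 14 and 5 on log2(TPM + 1) or 12 and 5 on log2(TPM + 0.1). In the macro-met against DTC interaction it was 11 and 2, against 18 and 1 with the marker covariate, 4 and 0 with GC offsets, and 14 and 0 or 15 and 0 on the 2 TPM scales. The median of all genes shifted by -0.25 to 0.29 on log2(TPM + 0.1), by -0.14 to 0.18 on log2(TPM + 1) and by -0.17 to 0.14 with GC offsets. Of 306 single values of members and of 8 other genes, GC offsets ended 42 calls besides that of Lgals3bp, log2(TPM + 1) ended 42, the marker covariate 28 and DESeq2 none. Low counts limit Rsad2 and Mx1 most.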

Other observations

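Members whose levels parted from the general pattern are given here as values, chosen after they were seen. Ifi44, an interferon-induced cytoplasmic protein, and Trim30a, a tripartite motif protein that dampens innate signalling, fell from BALB/c tumour to DTC, while Oasl1 rose, in every setting tried. Libraries of BALB/c mice held Ifi44 at 37.4, 80.1, 27.7, 29.6 and 59.8 CPM in tumours, at 36.4, 7.27, 8.99, 18.8 and 3.73 CPM in DTC and at 4.22, 5.78, 8.59, 14.7 and 12.3 CPM in macro-mets. In NSG mice the values were 9.55, 9.18, 2.92, 5.6 and 5.45 CPM in tumours, 10.1, 7.77, 8.53, 3.95 and 3.83 CPM in DTC and 0.903, 1.57, 0.359, 0.439 and 0.962 CPM in macro-mets. BALB/c DTC replicate 1, the library with the most lung epithelium RNA, overlapped the tumours in Ifi44, and all NSG macro-met libraries lay below all NSG DTC libraries. The BALB/c levels of Trim30a were 15, 25, 12.5, 16.9 and 23.3 CPM in tumours, 12.1, 4.35, 3.32, 6.93 and 1.17 CPM in DTC and 1.73, 3.7, 4.84, 7.84 and 10.1 CPM in macro-mets. The NSG libraries held Trim30a at 6.8, 5.39, 5.08, 3.85 and 4.03 CPM in tumours, 3.73, 3.33, 3.59, 4.52 and 1.65 CPM in DTC and 3.43, 2.42, 0.636, 1.79 and 1.47 CPM in macro-mets. Its BALB/c DTC libraries all lay below the BALB/c tumour libraries. Oasl1 was measured at 7.3, 14.1, 5.08, 7.52 and 8.56 CPM in BALB/c tumours, at 18.9, 17.9, 13.1, 24.3 and 18.4 CPM in BALB/c DTC and at 5.26, 5.42, 6.59, 6.1 and 6.21 CPM in BALB/c macro-mets. NSG levels of Oasl1 were 6.64, 3.89, 1.41, 7.56 and 6.15 CPM in tumours, 11, 9.45, 8.02, 9.44 and 8.23 CPM in DTC and 5.75, 4.34, 3.28, 5.96 and 4.56 CPM in macro-mets. The BALB/c DTC libraries of Oasl1 averaged 18.5 ± 3.99 CPM against 8.52 ± 3.38 CPM in tumours (SD, n = 5), with overlap.

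Adar, the double-stranded RNA editing enzyme, was called by edgeR in none of the 12 comparisons (smallest unadjusted p = 0.0993). Its group means lay between 71.6 ± 9.48 CPM in NSG tumours and 92.6 ± 5.3 CPM in BALB/c macro-mets (SD, n = 5). Epsti1, an epithelial-stromal interaction protein, and the ubiquitin ligase Trim25 were also called in none (smallest unadjusted p = 0.0155 and 0.0335, both between hosts in tumours). Epsti1 means ran from 13.1 ± 2.36 to 17.2 ± 2.1 CPM and Trim25 means from 69.1 ± 9.37 to 97.9 ± 24.2 CPM. Within their spread over libraries, neighbouring groups of these 3 genes overlapped.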
